A study of Mus musculus with 35 samples.

Results

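The genes described here are 10 components of the striatal cAMP and DARPP-32 signalling pathway: Ppp1r1b, Arpp21, Pde10a, Pde1b, Pde7b, Pde2a, Adcy5, Gnal, Gng7 and Ptpn5. They were chosen by name, as the rows of the count table that carry these symbols, and are 10 of the 32863 genes kept after exclusions. All 10 were among the 17346 genes with 6 or more counts in every library of at least 1 group. RNA-seq was performed on striata of 35 mice, 1 library per mouse, at 21.71 to 23.0 weeks of age. The study asked what the HttQ111 knock-in allele, which carries a long CAG repeat in the mouse homologue of the Huntington's disease gene, and the loss of the histone deacetylase gene Hdac2 from medium-spiny neurons (MSNs) each do to striatal transcripts, alone and together.

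The groups were Htt+/+ Hdac2+/+ (n = 8, 5 males and 3 females), HttQ111/+ Hdac2+/+ (n = 7, 4 males and 3 females), Htt+/+ Hdac2D/D (n = 9, 5 males and 4 females) and HttQ111/+ Hdac2D/D (n = 11, 8 males and 3 females). The Hdac2+/+ mice are called Hdac2 WT and the Hdac2D/D mice Hdac2 KO below. The KO mice were homozygous for a floxed Hdac2 allele and carried D9-Cre, in which a fragment of the Ppp1r1b gene, with some of its exons and introns, drives Cre in MSNs. The WT mice carried floxed Hdac2 without Cre, 2 of the Htt+/+ mice on 1 allele only. Every KO mouse therefore carried the transgene and no WT mouse did, so the transgene and the loss of Hdac2 cannot be told apart. Interneurons, glia and vessels of the KO striatum keep Hdac2. The normal allele had a repeat of 7 CAGs, and the HttQ111 repeats ran from 110 to 140 in Hdac2 WT and from 110 to 144 in Hdac2 KO mice. The mice were C57BL/6J with a remaining 129 contribution.

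MSNs are the projection neurons of the striatum and answer to dopamine and adenosine through cAMP. Receptors act through the G protein Golf (alpha subunit Gnal, gamma subunit Gng7) on the adenylyl cyclase Adcy5, which makes cAMP, while the phosphodiesterases Pde10a, Pde1b, Pde7b and Pde2a break down cyclic nucleotides. cAMP activates protein kinase A, whose striatal substrates include DARPP-32 (Ppp1r1b), which inhibits protein phosphatase-1 when phosphorylated, ARPP-21 (Arpp21), which binds calmodulin, and the tyrosine phosphatase STEP (Ptpn5). Several of these genes are known for their high level in MSNs and for their fall in models of Huntington's disease.

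The promoters of 5 of the genes are shown because their values form the main patterns below: Adcy5, Pde1b and Pde10a had lower levels with the HttQ111 allele, and Gng7 and Ptpn5 moved in opposite directions in Hdac2 KO striata. Each runs from 250 bases before to 50 bases after an annotated start in RefSeq (GRCm38.p6), 5′ to 3′ on the gene's strand. Capitals mark the GC box core, GGGCGG, on either strand. The Adcy5 promoter lies at chr16:35154614-35154913 (plus strand) and the first of the Pde1b promoters at chr15:103502784-103503083 (plus strand). The first Pde10a promoter lies at chr17:8801495-8801794 (plus strand), the first Gng7 promoter at chr10:81014876-81015175 (minus strand) and the second Ptpn5 promoter at chr7:47132549-47132848 (minus strand). The Pde10a and Ptpn5 windows lie inside the gene intervals given below.

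Adcy5 promoter: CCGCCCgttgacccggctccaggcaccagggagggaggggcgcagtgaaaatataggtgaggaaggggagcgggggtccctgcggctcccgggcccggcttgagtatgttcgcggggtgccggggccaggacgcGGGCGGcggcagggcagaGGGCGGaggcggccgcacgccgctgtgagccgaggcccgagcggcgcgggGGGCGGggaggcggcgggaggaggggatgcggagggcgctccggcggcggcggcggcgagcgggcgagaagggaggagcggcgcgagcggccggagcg
Pde1b promoter: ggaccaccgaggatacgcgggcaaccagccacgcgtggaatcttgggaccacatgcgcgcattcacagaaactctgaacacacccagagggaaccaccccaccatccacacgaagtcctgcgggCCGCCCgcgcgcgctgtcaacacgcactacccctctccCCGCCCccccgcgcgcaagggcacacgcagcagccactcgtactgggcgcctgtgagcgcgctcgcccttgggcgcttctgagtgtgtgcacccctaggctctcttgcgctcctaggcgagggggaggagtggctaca
Pde10a promoter: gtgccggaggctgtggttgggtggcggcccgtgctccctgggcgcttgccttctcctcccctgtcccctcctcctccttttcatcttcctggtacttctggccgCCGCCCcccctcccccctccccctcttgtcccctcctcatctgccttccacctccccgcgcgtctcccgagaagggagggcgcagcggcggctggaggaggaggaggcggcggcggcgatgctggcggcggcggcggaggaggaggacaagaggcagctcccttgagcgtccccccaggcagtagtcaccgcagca
Gng7 promoter: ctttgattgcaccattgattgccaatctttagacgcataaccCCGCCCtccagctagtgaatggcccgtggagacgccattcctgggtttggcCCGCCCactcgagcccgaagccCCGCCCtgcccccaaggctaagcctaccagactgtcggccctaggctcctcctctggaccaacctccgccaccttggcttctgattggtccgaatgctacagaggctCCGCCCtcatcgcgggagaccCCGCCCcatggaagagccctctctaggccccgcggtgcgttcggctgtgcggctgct
Ptpn5 promoter: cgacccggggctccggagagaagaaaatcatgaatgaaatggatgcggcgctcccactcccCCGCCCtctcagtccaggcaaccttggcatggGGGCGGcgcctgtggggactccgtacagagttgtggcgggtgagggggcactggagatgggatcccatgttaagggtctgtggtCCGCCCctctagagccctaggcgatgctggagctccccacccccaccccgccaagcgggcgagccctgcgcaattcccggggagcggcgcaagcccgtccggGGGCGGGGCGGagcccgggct

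These windows were rich in G and C, at 79% for Adcy5, 67% for Pde1b, 71.3% for Pde10a, 63.7% for Gng7 and 69% for Ptpn5, against a median of 52.7% over 32851 RefSeq promoters of 27025 genes. They held 4, 2, 1, 5 and 5 GC box cores. Other listed windows of these genes had lower shares, at 48.7% for the first Ptpn5 promoter, with 0 GC box cores, and 44% and 51% for the further Pde1b promoters. The first Arpp21 promoter had 40.7%. Of the 25 listed promoters, 16 lay above the median. Over all 25 listed promoters of the 8 genes for which promoters were used (all but Ppp1r1b and Gnal), 28% held a GC box core, against 35.7% of all promoters. The short cAMP response element, TGACG on either strand, stood in 20% of the members' promoters and in 20.8% of all, and in none of the windows shown. TATAAA stood in 4% and 13.6%. The motifs can overlap, and a match describes letters in a window only.

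Ppp1r1b lies at chr11:98348404-98357286, Arpp21 at chr9:112065091-112235938, Pde10a at chr17:8525372-8982391, Pde1b at chr15:103503298-103530052, Pde7b at chr10:20398004-20725032 and Pde2a at chr7:101421691-101512814 (GRCm38). Adcy5 lies at chr16:35154877-35305737, Gng7 at chr10:80948624-81014913, Ptpn5 at chr7:47077798-47133576 and Gnal on chromosome 18. The counts cover each whole gene interval, introns included. Libraries held 50339179 to 76939791 counts (median 56630712), and each of the 10 genes received between 12377 (Pde7b) and 149898 (Arpp21) counts per library, so counting error was small against the spread between mice.

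Per kilobase of merged exon, the level in Htt+/+ Hdac2 WT striata was highest for Ppp1r1b, at a median of 538 CPM per kb (CPM is the count scaled to a library total of 1000000, with TMM normalisation) (484.5 to 621). Gng7 followed at 481 (440 to 596), overlapping Ppp1r1b, and then Pde1b at 366 (335 to 376). Adcy5 (248), Pde2a (207), Ptpn5 (160) and Arpp21 (138) came next, each overlapping its neighbour in this order. Gnal (105), Pde10a (74.0) and Pde7b (30.7) were lowest, and none of these overlapped the gene above it. Intronic reads enter these values while intron length does not.

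**Figure D1:**
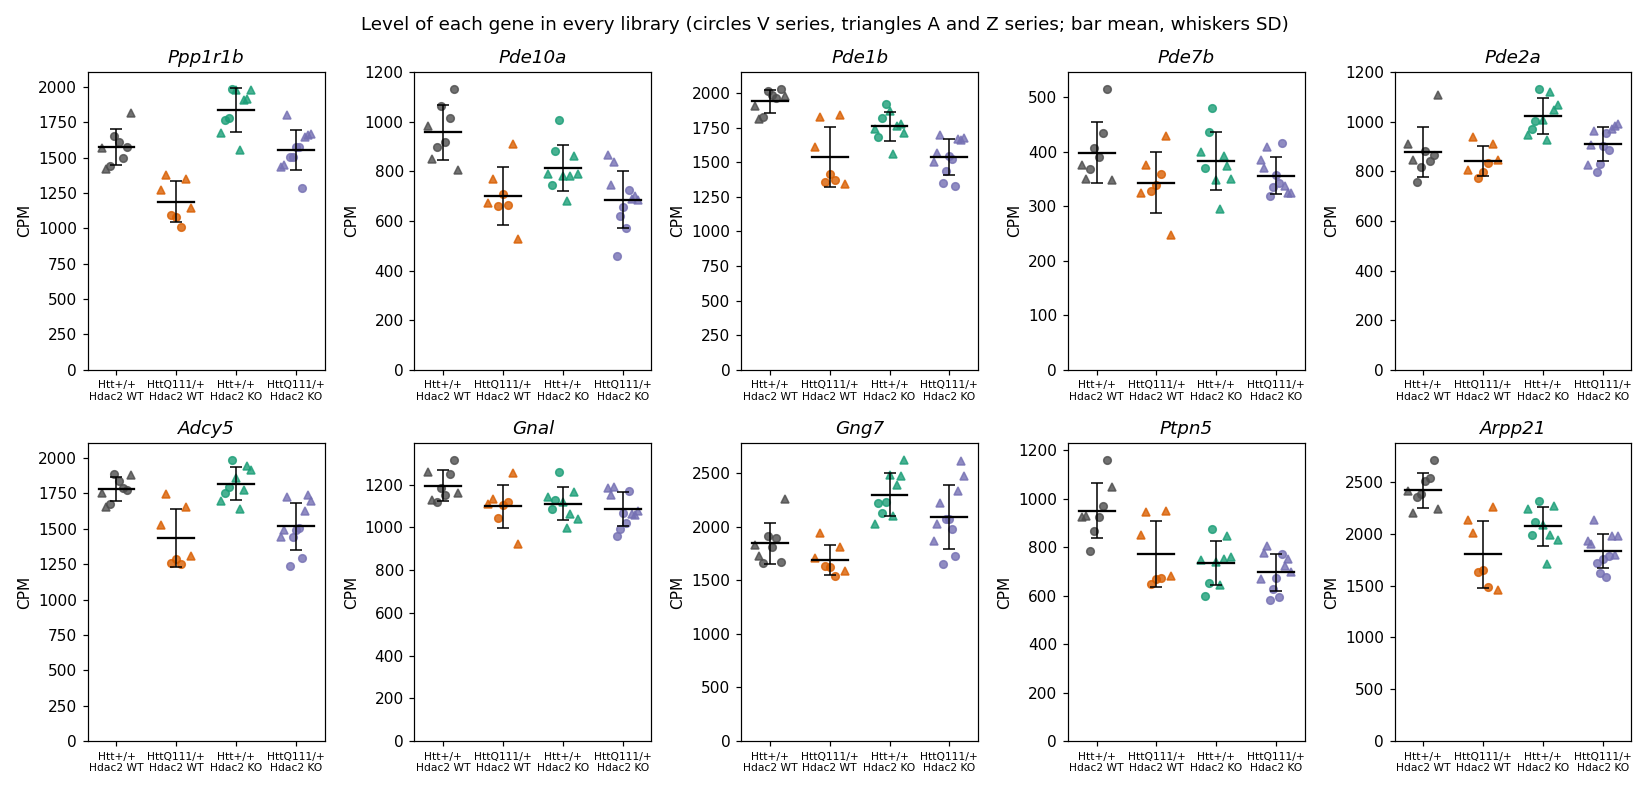
CPM of each of the 10 genes in each of the 35 libraries (points) by genotype group, circles for the V and triangles for the A and Z series, with the mean and SD of each group; each panel has its own linear axis from 0. Ppp1r1b in HttQ111/+ Hdac2 WT mice (1012 to 1378) lies wholly below Htt+/+ Hdac2 WT mice (1419 to 1817), and Gng7 is highest in Htt+/+ Hdac2 KO mice (2031 to 2624).

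The first comparison asked how the HttQ111 allele altered these genes when Hdac2 was intact. The DARPP-32 gene Ppp1r1b and the phosphodiesterase genes Pde10a and Pde1b fell in HttQ111/+ striata, and the remaining 7 genes did not pass. Ppp1r1b had a lowest, median and highest CPM of 1419, 1574 and 1817 in Htt+/+ and of 1012, 1143 and 1378 in HttQ111/+ mice. The groups did not overlap; 0.0642% of all genes tested were lower without overlap. Its log2 fold change in the fit across all genes was -0.28 (SE 0.05), a fall of 17.4%, with adjusted p = 0.0121 (edgeR quasi-likelihood test).

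Pde10a, the phosphodiesterase most typical of MSNs, had 806, 951 and 1134 CPM in Htt+/+ and 525.7, 674 and 909 in HttQ111/+ mice, with some overlap. It fell by 0.33 on the log2 scale (SE 0.07, adjusted p = 0.0222). Pde1b, which calcium and calmodulin activate, had 1810, 1972.7 and 2031 CPM against 1345.5, 1414 and 1838, and only the upper end of the HttQ111/+ range reached the Htt+/+ range. It fell by 0.26 (SE 0.06, adjusted p = 0.0463). Arpp21 had 2198, 2398 and 2711 CPM in Htt+/+ and 1453, 1649 and 2255 in HttQ111/+ mice, with a log2 fold change of -0.28 and adjusted p = 0.0506, just outside the threshold of 0.05. Adcy5 had 1655, 1784 and 1883 CPM against 1254, 1310 and 1746, with a log2 fold change of -0.22 and adjusted p = 0.104. In both genes most HttQ111/+ libraries lay below the whole Htt+/+ range and the highest lay inside it.

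Ptpn5 (log2 fold change -0.17, adjusted p = 0.265), Pde7b (-0.15, 0.273) and Gnal (-0.06, 0.603) had overlapping groups and did not pass. Gng7 (0.00, adjusted p = 0.995, 95% interval -0.07 to 0.07) and Pde2a (0.00, 0.987, -0.09 to 0.10) had estimates of about 0 in this fit. In all, 3 of 10 members passed, all lower, against 0.403% of the 17133 genes tested in either direction and 0.222% that were lower. At an unadjusted p under 0.05, 7 of 10 passed against 10.9% of all genes, and 8 of 10 had a log2 fold change below 0. Their median was -0.19, with that of all genes at about 0.

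The estimates above come from a fit with 9 surrogate variables, and log2 ratios of the group mean CPM were larger: -0.40 for Ppp1r1b, -0.45 for Pde10a, -0.43 for Arpp21 and -0.31 for Adcy5. The same ratio was -0.13 for Gng7 and -0.06 for Pde2a, and over the alternatives their fitted values ran from -0.17 to 0.02 and from -0.11 to 0.02. The number of members that passed ran from 0 to 6 over the alternatives: it was 5 without surrogate variables, 0 in males alone and 0 when the fit held only the groups compared. One library of each group mattered at the threshold: without Htt+/+ Hdac2 WT replicate 9, 2 members passed (Pde1b was lost, adjusted p = 0.0571), and without HttQ111/+ Hdac2 WT replicate 7, 4 passed (Arpp21 was gained). Shares of all genes for the fits without these libraries are not given.

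The same question in Hdac2 KO mice gave estimates of which none passed; those of Ppp1r1b, Pde10a, Pde1b, Adcy5 and Arpp21 were closer to 0 than in Hdac2 WT mice, and those of Pde2a and Gng7 were further from it. Ppp1r1b had 1551, 1907 and 1988 CPM in Htt+/+ and 1288, 1575 and 1803.4 in HttQ111/+ Hdac2 KO mice, with a log2 fold change of -0.20 (SE 0.04, edgeR adjusted p = 0.0963). The HttQ111/+ median lay close to the bottom of the Htt+/+ range. Adcy5 had 1640, 1796 and 1986 CPM against 1238, 1492 and 1738 (log2 fold change -0.19, adjusted p = 0.138). Pde10a (-0.20, adjusted p = 0.205), Pde1b (-0.17, 0.224) and Arpp21 (-0.18, 0.251) were alike in size. Pde2a had a log2 fold change of -0.12 (adjusted p = 0.359), and Ptpn5 one of 0.00 (0.990). All 10 estimates lay below 0, with a median of -0.14. At an unadjusted p under 0.05, 7 members passed, against 7.52% of all genes. Adjusted over all 17110 genes, 0 members and 0.00584% of all genes passed with edgeR. With DESeq2, 2 members passed, and the share of all genes in that fit is not given here.

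Averaged over both Hdac2 backgrounds, which uses all 35 libraries, the HttQ111 allele went with lower levels of 6 of the 10 genes, against 1.27% of 17346 genes in either direction and 0.836% that were lower. They span the cyclase, the hydrolases and the substrates: Ppp1r1b fell by 0.24 on the log2 scale (SE 0.03, edgeR adjusted p = 0.000431), Pde10a by 0.27 (SE 0.04, 0.00118), Pde1b by 0.21 (SE 0.04, 0.00328), Arpp21 by 0.23 (SE 0.04, 0.00372), Adcy5 by 0.21 (SE 0.04, 0.00372) and Pde7b by 0.13 (SE 0.03, 0.0467). The Pde7b call passed in 8 of 17 alternatives, and each of the other 5 in 15 of 17. Ppp1r1b counts of the Hdac2 KO mice may hold transgene reads, as described below. The Golf subunits did not pass, with log2 fold changes of -0.05 for Gnal (95% interval -0.10 to 0.00) and -0.02 for Gng7 (-0.06 to 0.03). Ptpn5 (-0.09, adjusted p = 0.354) and Pde2a (-0.06, 0.476) did not pass either. No member passed in a fit to the A and Z series of mice alone with sex as covariate, where Ppp1r1b and the others kept a negative estimate. In the fit of all mice by series, described below, some members did pass there, among them Ppp1r1b (edgeR adjusted p = 0.0119).

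**Figure D2:**
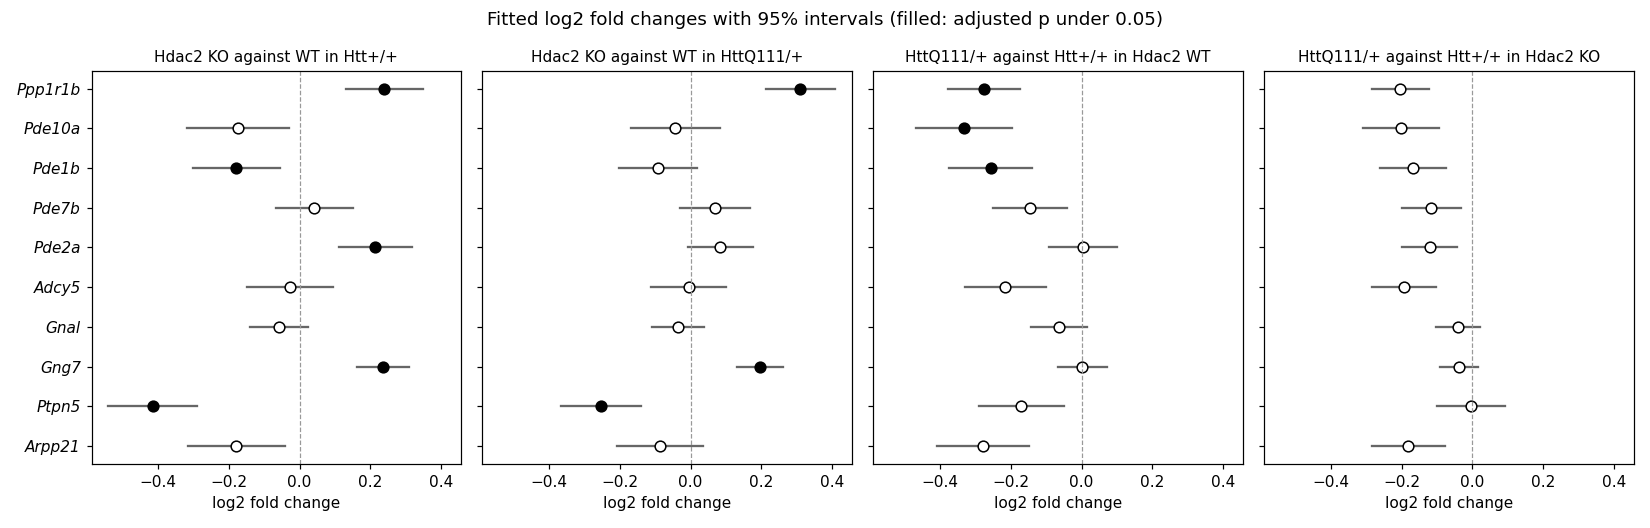
Log2 fold change with its 95% interval for each of the 10 genes in 4 comparisons, Hdac2 KO against WT and HttQ111/+ against Htt+/+ in each background; filled points passed adjusted p of 0.05 in the edgeR fit. Ptpn5 is low and Gng7 and Ppp1r1b are high in the Hdac2 comparisons, while Ppp1r1b, Pde10a, Pde1b, Adcy5 and Arpp21 share negative values in the HttQ111 comparisons.

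In bulk striatum, fewer cells of a type and less RNA per cell cannot be told apart, so markers of the cells present are given beside these falls. The summed level of 12 MSN markers outside the set had a lowest, median and highest value of 8284, 9190.0 and 9597 CPM in Htt+/+ and 6350.2, 6765 and 8754 CPM in HttQ111/+ Hdac2 WT mice. In Hdac2 KO mice it was 7843, 8570.1 and 9148 in Htt+/+ and 6806, 7813 and 8602 in HttQ111/+ mice. Of the 12 markers, 3 fell in HttQ111/+ Hdac2 WT mice (the enkephalin precursor Penk by 0.49 on the log2 scale, Rgs9 by 0.26 and the dopamine receptor Drd1a by 0.22), none changed in Hdac2 KO mice and 6 fell on average. Sums for oligodendrocytes (5209 to 7483 CPM in HttQ111/+ against 5049 to 6979 in Htt+/+ Hdac2 WT mice), astrocytes (994 to 1190.2 against 1081 to 1229), microglia (290.1 to 331 against 283 to 356) and interneurons (240.5 to 316 against 254 to 341) overlapped. The astrocyte channel gene Aqp4 was the 1 of their markers that fell, in Hdac2 WT mice. No marker was at 0 in every library of a group, and among the tested markers only Folr1, of the choroid plexus, reached 0 in a library (Htt+/+ Hdac2 WT). The cortical projection neuron sum was 416 CPM in HttQ111/+ Hdac2 WT replicate 7 and at most 161 in any other library; that library had the lowest Pde10a (525.7 CPM), Pde1b (1345.5), Pde7b (247), Gnal (921) and Arpp21 (1453) of its group. The choroid plexus sum was highest, at 211 CPM, in a Htt+/+ Hdac2 WT library. The part of cell composition and dissection in the falls was not tested.

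Mice came from 3 ID series, and the HttQ111 repeats were long in the V series (131 to 144) and short in the A and Z series (110 to 118), so repeat length and ID series cannot be told apart. The falls estimated for the HttQ111 allele were larger in the V series, for some genes beside higher Htt+/+ levels there. The ranges that follow are examples chosen after the data were seen, and the share of all genes that separate between series was not counted. Ppp1r1b in HttQ111/+ Hdac2 WT mice had 1012 to 1098 CPM in 3 V mice and 1143 to 1378 in 4 A and Z mice. In Htt+/+ Hdac2 WT mice it had 1443 to 1657 and 1419 to 1817. Adcy5 likewise had 1254 to 1289 CPM in the V and 1310 to 1746 CPM in the A and Z HttQ111/+ Hdac2 WT mice. Arpp21 in HttQ111/+ Hdac2 KO mice had 1587 to 1782 CPM in the 5 V and 1797 to 2130 CPM in the 6 A and Z mice. Pde10a did not separate in this way in Hdac2 WT mice (661 to 708 against 525.7 to 909). For Pde7b, HttQ111/+ Hdac2 WT means were 342 CPM in V and 344 CPM in A and Z mice, and Htt+/+ means 422 and 358. In Hdac2 KO mice its means were 354 and 358 in HttQ111/+ and 429 and 359 in Htt+/+ mice. Htt+/+ Hdac2 WT means were also higher in V mice for Pde10a (1006 against 879) and Arpp21 (2500 against 2282), but not for Ppp1r1b (1557 against 1602.5).

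A fit with the series in the model, chosen after the data were seen, gave the HttQ111 effect in each. In the V series 7 members passed, all lower, against 6.18% of genes: Pde10a by 0.47 on the log2 scale, Arpp21 by 0.46, Pde1b by 0.42, Adcy5 by 0.39, Ppp1r1b by 0.38, Pde7b by 0.29 and Ptpn5 by 0.19 (edgeR adjusted p = 0.0423 for Ptpn5 and below it for the others). In the A and Z series 4 members passed, against 0.19% of genes: Pde10a fell by 0.18 (adjusted p = 0.0217), Ppp1r1b by 0.16 (0.0119), Adcy5 by 0.13 (0.022) and Pde1b by 0.12 (0.0453). Arpp21 had -0.10 there and Pde7b -0.02. The difference between series itself passed for 6 members, against 1.97% of genes, and was largest for Arpp21 (-0.36), Pde1b (-0.30) and Pde10a (-0.30). With sex in place of the surrogate variables the same difference passed for 0 members, and Arpp21 came nearest (adjusted p = 0.0719). Without Htt+/+ Hdac2 WT replicate 9, 1 member passed in the A and Z series, and without HttQ111/+ Hdac2 WT replicate 7, 0 passed there and Ppp1r1b lost its difference (adjusted p = 0.103). Shares of all genes without these libraries are not given.

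**Figure D3:**
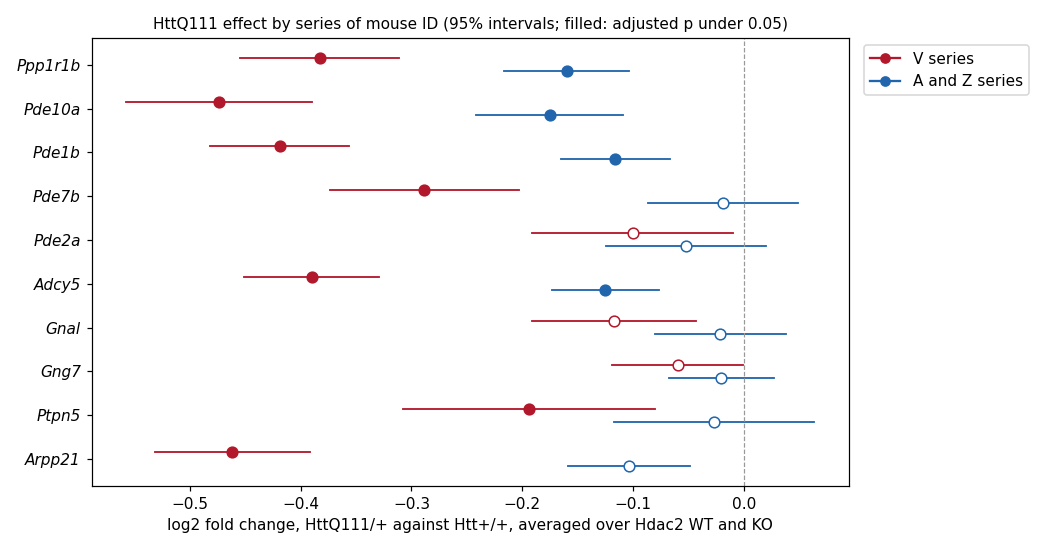
Log2 fold change of HttQ111/+ against Htt+/+ with its 95% interval for each gene in the V series (CAG 131 to 144) and in the A and Z series (CAG 110 to 118), from the fit with surrogate variables. Arpp21 (-0.46 against -0.10), Pde1b (-0.42 against -0.12) and Pde10a (-0.47 against -0.18) show wide gaps, and Gng7 and Pde2a lie close to 0 in both.

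The second question was what MSN Hdac2 KO did to the pathway. In Htt+/+ mice, Gng7, Ppp1r1b and Pde2a rose, Ptpn5 and Pde1b fell, and the remaining 5 genes did not pass. Hdac2 itself, whose count over the whole gene takes in transcripts without the deleted exons and RNA of cells without Cre, had 97.6 to 107 CPM in Htt+/+ Hdac2 WT and 89.4 to 99.2 CPM in Htt+/+ Hdac2 KO mice (log2 fold change -0.09, edgeR adjusted p = 0.0552). In HttQ111/+ mice it had 95.5 to 111 CPM and 89.8 to 101 CPM (-0.12, adjusted p = 0.00198).

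Ptpn5, which encodes STEP, had 784, 927 and 1159 CPM in Htt+/+ Hdac2 WT and 600, 745 and 876 CPM in Htt+/+ Hdac2 KO mice. Most KO libraries lay below the WT range. It fell by 0.41 on the log2 scale (SE 0.06, edgeR adjusted p = 1.89e-05), a loss of 25.0%. In HttQ111/+ mice it had 648, 682 and 950 CPM in Hdac2 WT and 581, 697 and 806 CPM in Hdac2 KO mice, whose ranges overlapped widely, and the fit gave a fall of 0.25 (SE 0.06, adjusted p = 0.002). The log2 ratio of the group mean CPM was smaller, at -0.15. This call passed in 12 of 18 alternatives, with log2 fold changes from -0.25 to -0.05.

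Gng7, the gamma subunit of Golf, moved up in both backgrounds. It had 1666, 1822 and 2257 CPM in Htt+/+ Hdac2 WT and 2031, 2234 and 2624 CPM in Htt+/+ Hdac2 KO mice, and replicate 9 alone of the WT mice reached into the KO range. It rose by 0.24 (SE 0.04, adjusted p = 2.6e-05). In HttQ111/+ mice it had 1538, 1632 and 1942 CPM in Hdac2 WT and 1656, 2073 and 2617 CPM in Hdac2 KO mice, a rise of 0.20 (SE 0.03, adjusted p = 7.87e-05). Its partner Gnal did not pass in either background, with log2 fold changes of -0.06 (95% interval -0.14 to 0.02) and -0.04 (-0.11 to 0.04), nor did their effector Adcy5, with -0.03 (-0.15 to 0.09) and -0.01 (-0.11 to 0.10).

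The phosphodiesterases did not move together. Pde2a, which cGMP stimulates, had 757, 856 and 1106 CPM in Htt+/+ Hdac2 WT and 925, 1008 and 1133 CPM in Htt+/+ Hdac2 KO mice and rose by 0.21 (SE 0.05, adjusted p = 0.00381). In HttQ111/+ mice its log2 fold change was 0.08 (adjusted p = 0.246). Pde1b had 1557, 1758 and 1918 CPM in Htt+/+ Hdac2 KO mice, against 1810 to 2031 in WT, and fell by 0.18 (SE 0.06, adjusted p = 0.0473), while in HttQ111/+ mice it had -0.09 (0.305). Pde10a (-0.17, adjusted p = 0.107 in Htt+/+ and -0.04, 0.726 in HttQ111/+ mice) and Pde7b (0.04, 0.687 and 0.07, 0.405) did not pass. Arpp21 had log2 fold changes of -0.18 (adjusted p = 0.0743) and -0.09 (0.402).

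In all, 5 members passed in Htt+/+ mice (3 higher and 2 lower), against 17.8% of 17126 genes (9.06% higher and 8.79% lower), and 3 in HttQ111/+ mice (2 higher and 1 lower), against 16.5% of 17169 genes (7.68% higher and 8.86% lower). Without Htt+/+ Hdac2 WT replicate 9 or without HttQ111/+ Hdac2 WT replicate 7, 7 passed in Htt+/+ mice, with Pde10a and Arpp21 added. The share of all genes that passed without these libraries is not given here. Of the 12 MSN markers outside the set, 1 rose and 4 fell in Htt+/+ mice, and 1 rose and 1 fell in HttQ111/+ mice; their part in these results was not tested. Each Hdac2 WT group is the control of the matching Hdac2 comparison and also enters the HttQ111 comparison in Hdac2 WT mice, so these comparisons share samples.

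RNA was extracted on different days for most Hdac2 WT (24, 25 and 27 May) and most Hdac2 KO mice (26 and 31 May and 3 June). With the date as covariate instead of surrogate variables, 0 members passed in Htt+/+ mice and 1, Ppp1r1b, in HttQ111/+ mice. On 2 dates a KO library was extracted beside WT libraries of the same Htt genotype. On 27 May the 1 Htt+/+ Hdac2 KO library lay above all 3 Htt+/+ Hdac2 WT libraries in Ppp1r1b (1980.1 against 1443 to 1657 CPM), Gng7 (2624 against 1666 to 1914) and Pde2a (1066 against 757 to 843). It lay below them in Ptpn5 (759 against 784 to 969) and Pde1b (1709 against 1823 to 2011). It was also above them in Adcy5 (1915 against 1676 to 1883). Pde10a (790 against 901 to 1062), Arpp21 (1942 against 2356 to 2534), Pde7b and Gnal were below. That library was thus outside the WT range in all 10 genes, and the share of all genes outside that range was not counted. On 25 May the 1 HttQ111/+ Hdac2 KO library lay above both HttQ111/+ Hdac2 WT libraries in Ppp1r1b (1435 against 1079 to 1143 CPM) and Gng7 (1865 against 1584 to 1621). It also lay above both in Pde1b (1502 against 1345.5 to 1414), Pde10a (866 against 525.7 to 708), Adcy5 (1441 against 1289 to 1310.4), Pde7b, Gnal and Arpp21. It was thus higher in 8 of the 10 genes, and the share of all genes above both WT libraries was not counted. Pde2a lay between them, and Ptpn5 just below them (667 against 668 to 682). One of the 2 WT libraries of that date was replicate 7, described above. The libraries set side by side also differed in ID series. On 27 May the KO library was of the Z series and its WT libraries of the V series. On 25 May the KO library was of the A series and its WT libraries of the V and Z series, with other repeat lengths. Each date holds a single KO library, most pairs of members varied together within groups (below), and no test was run within a date.

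Ppp1r1b needs a separate account, since D9-Cre is built from its gene and reads from transgene copies would be counted with it. It had 1419, 1574 and 1817 CPM in Htt+/+ Hdac2 WT against 1551, 1907 and 1988 CPM in Htt+/+ Hdac2 KO mice, a rise of 0.24 (SE 0.06, adjusted p = 0.00242). In HttQ111/+ mice it had 1012, 1143 and 1378 CPM against 1288, 1575 and 1803.4 CPM, a rise of 0.31 (SE 0.05, adjusted p = 3.48e-05), and most KO libraries lay above the WT range. Genes on either side of it on chromosome 11 were also examined. Whether their levels bear on transgene reads in Ppp1r1b was not tested.

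Pnmt, which encodes the enzyme that makes adrenaline and starts 29163 nt after the end of Ppp1r1b, had 0.636 to 0.937 CPM in Htt+/+ Hdac2 WT and 4.29 to 8.17 CPM in Htt+/+ Hdac2 KO mice, with no overlap; 2.41% of all genes tested were higher without overlap. Its log2 fold change was 3.03 (adjusted p = 7.16e-12), and in HttQ111/+ mice it had 0.441 to 1.12 and 2.09 to 5.24 CPM (2.12, adjusted p = 1.5e-09). Erbb2, a receptor tyrosine kinase gene 55183 nt away, rose by 0.77 (adjusted p = 5.53e-06) and 0.53 (0.000249), with means of 3.53 and 6.35 CPM in Htt+/+ and 3.20 and 5.07 CPM in HttQ111/+ mice. Tcap, 26524 nt away, rose by 1.72 in Htt+/+ mice (adjusted p = 0.0191) from a mean of 0.143 to one of 0.532 CPM, and was too low to be tested in HttQ111/+ mice. Stard3 (1081 nt away) and Pgap3 (31390 nt away), in the same stretch, did not pass, with log2 fold changes of -0.03 and 0.05 for Stard3 and -0.02 and 0.00 for Pgap3. Neurod2, 18755 nt before Ppp1r1b, had -0.82 (0.139) and 0.48 (0.384). Pnmt was also the 1 gene that passed for HttQ111/+ against Htt+/+ in Hdac2 KO mice, at -0.75 (adjusted p = 0.0329). How many Ppp1r1b counts came from the transgene was not tested, and its rise in Hdac2 KO mice cannot be told apart from such reads. The same limit holds for the HttQ111 estimates of Ppp1r1b in Hdac2 KO mice, on average and by series, which use mice with Cre.

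**Figure D4:**
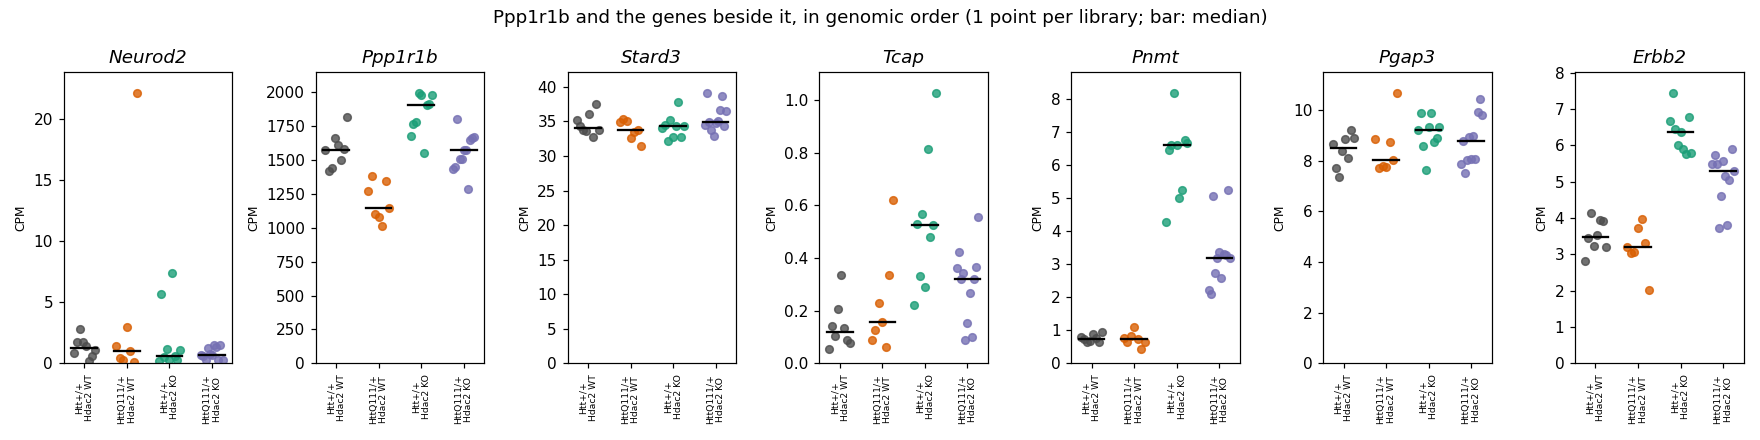
CPM of Ppp1r1b and of the genes beside it on chromosome 11 in each library (points, with the median as a bar) by genotype group, on linear axes from 0. Pnmt is at or below 1.12 CPM in every Hdac2 WT library and at or above 2.09 CPM in every Hdac2 KO library, whereas Stard3 has group means between 33.8 and 35.6 CPM.

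Setting HttQ111/+ Hdac2 KO against Htt+/+ Hdac2 WT mice gives the distance of the double mutant from the control. Ptpn5 fell by 0.42 on the log2 scale (SE 0.06, edgeR adjusted p = 5.41e-06), Pde10a by 0.38 (0.000137), Arpp21 by 0.37 (0.000132), Pde1b by 0.35 (6.23e-05) and Adcy5 by 0.22 (0.00529), while Gng7 rose by 0.19 (0.000154). Arpp21 (1587 to 2130 against 2198 to 2711 CPM) and Pde1b (1325 to 1699 against 1810 to 2031 CPM) did not overlap, while 1.7% of all genes tested were lower without overlap. These 6 members passed against 21.2% of 17088 genes (10.2% higher and 11% lower). Ppp1r1b had a log2 fold change of 0.03 (95% interval -0.07 to 0.14) and a median of 1575 CPM against 1574, with the limit on Cre-bearing mice given above. With the extraction date as covariate instead of surrogate variables, 1 member passed. Of the 122 other pathway genes described below, 17 rose and 41 fell (47.5%), with the fall of 1.62 in Ptpn7 and the rise of 0.58 in Pde4c furthest from 0 among those named.

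The test of whether the HttQ111 effect differed between Hdac2 WT and Hdac2 KO mice passed for 0 members with edgeR and with DESeq2, against 0.00577% of genes. At an unadjusted p under 0.05 it gave 1 member, Ptpn5 (0.17, p = 0.0378 in the edgeR fit across all genes), against 5.63% of genes. The 95% intervals of the difference ran from -0.05 to 0.21 for Ppp1r1b, from -0.04 to 0.30 for Pde10a, from -0.06 to 0.26 for Arpp21 and from -0.12 to 0.17 for Adcy5, on the log2 scale. No size of difference that the design could detect was estimated.

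Around the 10 genes, 128 further genes of the pathway were listed and 122 tested. In Hdac2 KO against WT, 17 rose and 29 fell in Htt+/+ mice (37.7%), and 10 rose and 25 fell in HttQ111/+ mice (28.7%), beside the 17.8% and 16.5% of all genes. With the HttQ111 allele, 0 rose and 2 fell in Hdac2 WT mice (1.64%), none passed in Hdac2 KO mice, and 1 rose and 9 fell on average (8.20%). The list was chosen with earlier results of these data known, so these shares are a description.

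Among tyrosine phosphatases related to STEP and its substrates, 1 of 9 rose and 3 fell with Hdac2 KO in Htt+/+ mice, and 1 rose and 4 fell in HttQ111/+ mice. Ptpn7, a relative of STEP that also acts on MAP kinases, had 12.2, 15.7 and 19.7 CPM in Htt+/+ Hdac2 WT and 4.17, 5.81 and 8.38 CPM in Htt+/+ Hdac2 KO mice. It fell by 1.60 on the log2 scale (edgeR adjusted p = 1.46e-09) with no overlap, where 2.29% of all genes tested were lower without overlap, and by 1.28 in HttQ111/+ mice (9.72e-09). Ptprr, another relative, rose by 0.24 in Htt+/+ mice (0.00329). Ptk2b, a tyrosine kinase that STEP dephosphorylates, had 651 to 692 CPM and 485 to 532 CPM, and fell by 0.37 (1.32e-09) and 0.35 (9.59e-10). Grin2b, a glutamate receptor subunit and STEP substrate, fell by 0.19 in HttQ111/+ mice.

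Among 11 other cyclases, 2 rose and 3 fell in each background. Adcy6, the closest relative of Adcy5, rose by 0.33 (adjusted p = 0.000101) and 0.35, and Adcy9 fell by 0.27 (0.000104) and 0.24. The calcium-activated Adcy1 fell by 0.33 (0.000791) and 0.21. Among 15 other phosphodiesterases, 3 rose and 2 fell in Htt+/+ mice and 1 rose and 1 fell in HttQ111/+ mice. The cGMP-specific Pde9a had 12.7, 15.7 and 19.2 CPM in Htt+/+ Hdac2 WT and 21.3, 22.4 and 29.1 CPM in Htt+/+ Hdac2 KO mice, with no overlap, and rose by 0.47 (3.11e-05) and 0.53 (1.01e-06). The cAMP-specific Pde4c (0.47, adjusted p = 0.0368) and Pde4d (0.21, 0.013) rose in Htt+/+ mice, although Pde4d had -0.013 in the V series alone, and Pde8b fell by 0.14 in HttQ111/+ mice.

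Of 22 other G protein subunits and partners, 6 rose and 3 fell with Hdac2 KO in Htt+/+ mice, and 3 rose and 3 fell in HttQ111/+ mice. The gamma subunit Gng3 rose by 0.33 (adjusted p = 0.000109) and 0.16, the latter turning to -0.16 with extraction date in the fit. Gnb4 (0.31, 0.0204; -0.025 with extraction date) and Gng4 (0.29, 0.0126) rose in Htt+/+ mice, and in HttQ111/+ mice Gng10 rose by 0.17 and Gnao1 fell by 0.19. Of 23 kinases, phosphatases and inhibitors that act on or beside DARPP-32, 2 rose and 6 fell in Htt+/+ and 1 rose and 5 fell in HttQ111/+ mice. Ppp1r1a, which like DARPP-32 inhibits protein phosphatase-1, rose by 0.30 (0.00223) and 0.32. Ppp1r9a, a scaffold of that phosphatase, fell by 0.33 (0.000129) and 0.34, with 260 to 330 CPM in Htt+/+ Hdac2 WT and 197 to 266 CPM in Htt+/+ Hdac2 KO mice. The calcineurin subunit Ppp3r1 fell by 0.26 in Htt+/+ mice, and Cdk5r1, the activator of the kinase Cdk5, fell by 0.27 in HttQ111/+ mice.

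Among 14 protein kinase A and G subunits, inhibitors and anchors, 1 rose and 1 fell in Htt+/+ and 0 rose and 3 fell in HttQ111/+ mice. In the latter the cGMP-dependent kinases Prkg1 and Prkg2 fell by 0.43 (adjusted p = 0.0201) and 0.32. The kinase anchor Akap11 fell by 0.09 and 0.11, and Akap12 rose by 0.31 in Htt+/+ mice. Of 10 cAMP-linked transcription factors and their targets, 4 and 3 fell and none rose. Rap1gap fell by 0.24 and 0.26, Rasgrp2, which acts on the same small G protein, by 0.35 and 0.19 (0.00 in the V series alone), the repressor and activator gene Crem by 0.28 in Htt+/+ mice and the coactivator Crtc1 by 0.20 in HttQ111/+ mice. Of 18 receptors, 2 rose and 7 fell in Htt+/+ and 2 rose and 3 fell in HttQ111/+ mice. The kappa opioid receptor Oprk1 fell by 0.36 (0.00658) and 0.56 (1.28e-05), and the cannabinoid receptor Cnr1 fell by 0.45 in Htt+/+ mice (0.0289). Gpr149, an orphan receptor, rose by 0.53 (0.00124) and 0.30, the latter turning to -0.22 with extraction date, and the serotonin receptor Htr4 rose by 0.32 in HttQ111/+ mice (0.0375).

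With the HttQ111 allele in Hdac2 WT mice, the 2 further pathway genes that passed were receptors of MSNs. Gpr6, which raises cAMP without a ligand, had 95.2, 98.5 and 112 CPM in Htt+/+ and 64.5, 71.2 and 98.5 CPM in HttQ111/+ mice and fell by 0.33 (edgeR adjusted p = 0.0159). Drd1a had 417, 452 and 480 CPM against 305, 354 and 405 CPM, with no overlap, and fell by 0.22 (0.0439). On average over both backgrounds 6 of 18 receptors fell, among them Htr4 (by 0.38, adjusted p = 0.00496), Gpr6 (0.26, 0.000912) and the adenosine receptor Adora2a (0.25, 0.0152). The protein kinase A subunit Prkar2b fell by 0.10, the calcineurin subunit Ppp3ca by 0.12 and the G protein subunit Gnb5 by 0.17, while Gng3 rose by 0.14 (0.0312).

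Within genotype groups the shared variation from mouse to mouse differed widely between pairs of the 10 genes. Over the 45 pairs, Pearson's r of the log2 CPM deviations from the group means across 35 libraries ran from -0.12 (Pde7b and Gng7) to 0.93 (Pde1b and Adcy5), with a median of 0.62, and 1 pair was below 0. Pde10a and Gnal had 0.89, and Ppp1r1b and Adcy5 had 0.86. Pde10a, Pde7b and Gnal had 0.80 to 0.89 with each other and low values with Gng7 (-0.12 to 0.22). Gnal and Gng7, subunits of one G protein, had 0.07. The points share library, dissection and normalisation, and differences between ID series within a group remain in the deviations, so these values are descriptions.

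The genes that varied most like each member within the groups, by the same Pearson's r over 35 libraries and among 8694 genes, were Necab2 for Ppp1r1b (0.90), Camk4 for Pde10a (0.88), Ngef for Pde1b (0.87), Lmo7 for Pde7b (0.88) and Sorcs2 for Pde2a (0.84). They were Bcr for Adcy5 (0.90), Akap9 for Gnal (0.87), Agap2 for Gng7 (0.91), Wipf3 for Ptpn5 (0.91) and Drd1a for Arpp21 (0.88). Second came Pcp4l1 for Ppp1r1b (0.87), Akap9 for Pde10a (0.87), Rgs9 for both Pde1b (0.86) and Adcy5 (0.89), D3Bwg0562e for Pde7b (0.88) and Efr3b for Pde2a (0.80). Hnrnpul2 was second for Gnal (0.86), Acly for Gng7 (0.89), Lrrk2 for Ptpn5 (0.87) and Slmap for Arpp21 (0.87).

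**Figure D5:**
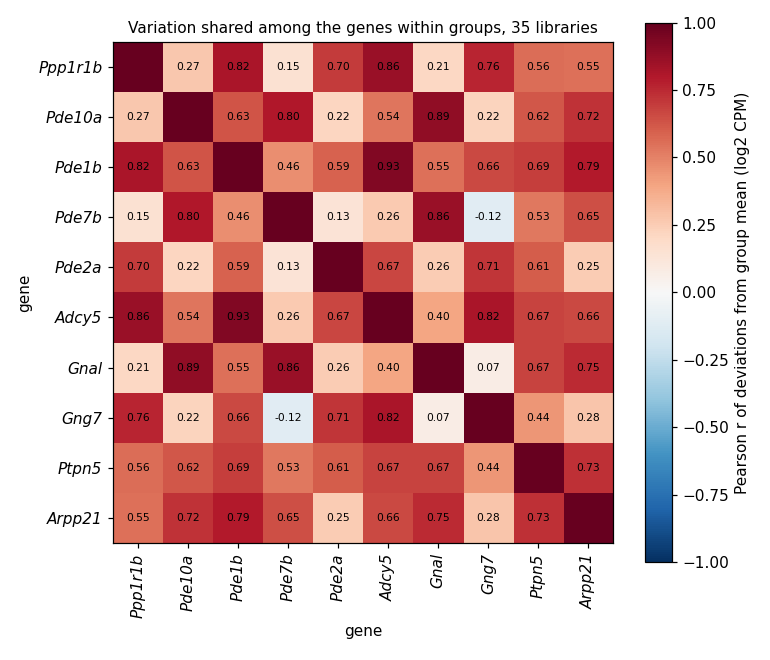
Pearson's r between each pair of the 10 genes, from log2 CPM deviations from the genotype group means over 35 libraries. Pde1b, Adcy5 and Ppp1r1b form a block of high values (0.93 for Pde1b and Adcy5), and Gng7 has low values with Gnal (0.07) and Pde7b (-0.12).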

How the data were processed

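The authors prepared stranded poly(A) RNA libraries from whole striatum, aligned the reads with GSNAP to GRCm38 and counted reads that aligned uniquely to each Ensembl gene, from its first to its last base, with bedtools multibamcov (the use of strand is not given in the sources used here). They deposited these as raw counts of 35 libraries, having left out 1 further mouse. From 39109 entries, removal of 92 ERCC spike-ins, 2 mitochondrial rRNA genes and 6152 genes spanning at most 250 nt left 32863 genes. A gene was tested where every library of at least 1 group compared had 6 or more counts.

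All 35 libraries were fitted together in R 4.3.3 with edgeR 4.0.16 (TMM normalisation, quasi-likelihood F test, older form). Each main fit held 9 surrogate variables from svaseq (sva 3.50.0). The p-values were adjusted by Benjamini-Hochberg over all genes tested, with a threshold of 0.05. Unless another is named, values come from this fit. CPM is the count scaled to a library total of 1000000 over the 17346 genes, after TMM normalisation. On simulated data, 199 of 200 changed genes and 7 unchanged genes were called among 17261 genes for HttQ111/+ against Htt+/+ in Hdac2 WT mice, and 0 for the contrast in Hdac2 KO mice with no gene changed. The simulation gave every gene the same spread and held no sex, series or date effects. Its changes were larger than the members' log2 fold changes in the main fits. It therefore checks the code and gives no sensitivity or error rate for these data. Alternatives were other covariates, subsets, filters and normalisations and the DESeq2 1.42.0 Wald test. The fit by ID series and the fits without single libraries were added after the data were seen. The fit by ID series split each genotype group into V and A and Z mice and held 8 surrogate variables.

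The members and gene lists were chosen with earlier results of these data known. All members, the 6 neighbours of Ppp1r1b, and Hdac2 are named. Of each pathway list the text names up to 3 of the genes with the largest fold changes among those that passed and had a mean log2 CPM of 1 or more, and for the double mutant only 2 genes in all. The 2 genes that varied most like each member needed a mean log2 CPM of 4 or more. Overlapping genes on the opposite strand were low against their members: the highest, Mppe1, over 1263 nt of Gnal, had a median of 16.0 CPM.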

Additional observations from a re-analysis of the deposited data

Results flagged for a closer look

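In Htt+/+ Hdac2 WT replicate 9, Pde2a had 1106 CPM (1106.22), against 911 in the next highest library of the group, and Gng7 had 2257 CPM (2256.79), against 1914. Both stood apart from their group by Dixon's criterion. Of 30 sets of values (10 genes in the groups of 7, 8 and 9 mice) 2 stood apart, and chance alone gives about 5%. Groups of 11 were not examined. Without that library Pde2a and Gng7 still passed in Hdac2 KO against WT in Htt+/+ mice, where 7 members then passed (share of all genes not given).

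The HttQ111 effect differed between ID series, with a longer repeat in V than in A and Z mice, for 6 members. The log2 difference, V minus A and Z, was -0.22 for Ppp1r1b (edgeR adjusted p = 0.00509), -0.30 for Pde10a (0.00181), -0.30 for Pde1b (3.63e-05), -0.27 for Pde7b (0.00483), -0.26 for Adcy5 (0.000194) and -0.36 for Arpp21 (3.29e-05). The remaining 4 members had differences from -0.17 (Ptpn5, adjusted p = 0.259) to -0.04 (Gng7). For Pde7b the means of HttQ111/+ mice were alike in the series, and those of Htt+/+ mice were higher in V. With sex in place of the surrogate variables 0 of these differences passed. Repeat length, ID series and the parents behind them cannot be told apart.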

How the results depend on the processing

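The members had at least 12377 counts in every library, so counting error was small. No member's called value changed sign under any alternative. In Hdac2 KO against WT, 5 members passed in Htt+/+ mice, against 0 with the extraction date as covariate, 3 with a replicate block and 1 in the A and Z series; 3 passed in HttQ111/+ mice, against 1 with date and 1 in the V series. For HttQ111/+ against Htt+/+ in Hdac2 WT mice, 3 passed, against 5 without surrogate variables, 5 with sex, 6 with date, 6 with ID series, 6 in the V series, 6 without the A-series Htt+/+ Hdac2 WT libraries and 5 with the DESeq2 Wald test, and against 0 with the replicate block, 0 with only the groups compared, 0 in males and 0 in the A and Z series. In Hdac2 KO mice 0 passed, against 3 in the V series, 2 with DESeq2 and 1 with a minimum of 20 counts. For the double mutant 6 passed, against 1 with date and 1 in the A and Z series. For the average HttQ111 effect 6 passed, against 0 with the replicate block and 0 in a fit to the A and Z series alone with sex as covariate. For the effect in the A and Z series from the fit of all mice by series, 4 passed, against 0 with sex. For the difference between series, 6 passed, against 0 with sex. The numbers of all genes that passed are given below for some of these alternatives only. The cause of these shifts was not tested.

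Without Htt+/+ Hdac2 WT replicate 9 or HttQ111/+ Hdac2 WT replicate 7, the members that passed numbered 7 to 7 and 3 to 3 for Hdac2 KO in Htt+/+ and HttQ111/+ mice, 2 to 4 and 0 to 0 for HttQ111/+ in Hdac2 WT and KO mice, 6 to 7 for the double mutant, 0 to 0 for the interaction, 5 to 6 on average, 7 to 7 in the V series, 0 to 1 in the A and Z series and 5 to 6 for their difference. Other replicates were not left out, and the shares of all genes that passed in these fits are not given.

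Replicate numbers were not taken to pair the mice, since no pair of groups had every same-numbered pair of libraries with a correlation of deviations over 0.1. The nearest was Htt+/+ Hdac2 WT with HttQ111/+ Hdac2 KO, where 7 of 8 pairs were over 0.1 (median 0.27, against -0.05 for other pairs) and each pair shares its ID series; with the replicate block 4 members passed there, against 6. The other pairs of groups had 2 or 3 such pairs. Beside the counts above, the replicate block changed the number of all genes that passed from 3056 to 843, from 69 to 0, from 3627 to 1641 and from 220 to 5 in Hdac2 KO against WT in Htt+/+ mice, HttQ111/+ in Hdac2 WT mice, the double mutant and the average effect. For HttQ111/+ in Hdac2 WT mice, the other alternatives gave 419 genes (date), 837 (series), 538 (V), 0 (A and Z), 0 (only groups compared), 10 (males), 530 (without A-series Htt+/+ Hdac2 WT), 154 (DESeq2), 34 (no filter) and 31 (20 counts). With date, Hdac2 KO gave 822 and 331 genes in Htt+/+ and HttQ111/+ mice.

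Further genes changed sign as follows. In Hdac2 KO against WT in Htt+/+ mice, Pde4d had -0.013 in the V series and Gnb4 -0.025 with date. In HttQ111/+ mice, Gng3 had -0.16 with date, Gpr149 -0.0059 with sex, -0.22 with date and -0.17 in the V series, Rasgrp2 0.00072 in the V series and Neurod2 -2.28 without surrogate variables. In the double mutant Gnb4 had -0.043 with date. The fit on only the groups compared was not possible for the interaction and the average effect.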
